A study of Arabidopsis thaliana with 4 samples.

Results

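WRKY transcription factors were followed in whole seedlings of *Arabidopsis thaliana* by taking the array features annotated to exactly 1 gene whose symbol is WRKY and a number. This gave 6 genes, WRKY53, WRKY22, WRKY6, WRKY42, WRKY47 and WRKY20, among the 13356 genes with such a feature of their own. On Affymetrix ATH1 arrays a feature is a probe set, a group of short probes whose signals are combined into 1 intensity, and each of the 6 genes had a single probe set. The RefSeq gene table (assembly TAIR10.1) holds 72 loci with a WRKY number as symbol or synonym, and beside the 6 the annotation used gives 1 of them, ZAP1, whose synonym is WRKY1. The remaining 65 were not analysed here.

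The ref6-1 mutant, which has the ecotype background Col, was compared with wild-type Col. REF6 (JMJ12) is a histone demethylase of the Jumonji class that acts on the repressive mark H3K27me3. Both genotypes were untreated whole seedlings harvested at 10 days after germination, grown on MS plates, a standard nutrient medium, at 23 °C in long days of 16 h light and 8 h dark. Each was represented by 2 arrays that the labels call biological replicates, and a whole-seedling extract cannot tell a change in RNA per cell from a change in the share of the cells that express a gene.

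WRKY proteins bind a short DNA element called the W box through a domain that carries the amino acid sequence after which the family is named. They act in immune signalling, in leaf senescence and in the response to nutrient supply, and many WRKY genes are themselves switched on within a short time of a stimulus and have W boxes in their own promoters. The family is divided into groups by the number of WRKY domains and the type of zinc finger: WRKY53 belongs to group III, WRKY22 to group IIe, WRKY6, WRKY42 and WRKY47 to group IIb, and WRKY20 and WRKY1 to group I, whose members have a pair of domains. REF6 has been reported to act on genes of leaf senescence, a process in which WRKY53 and WRKY6 are known regulators.

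The log2 fold changes of the 6 WRKY genes, ref6-1 minus Col, lay between -0.05 and 0.35. None of the 6 passed the test across all probe sets (limma, adjusted p of 0.05), a threshold that 337 of 22746 probe sets passed, or 1.48% (0.774% higher and 0.708% lower in ref6-1). The largest difference was that of WRKY47, whose mean in ref6-1 was 30.4% above that in Col, and the other group IIb genes, WRKY42 and WRKY6, followed at 20.5% and 11.1%. WRKY53, WRKY22 and WRKY20 had overlapping values in the 2 genotypes. At an unadjusted p under 0.05, 1 of the 6 genes was counted, WRKY47, against 8.5% of all probe sets.

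WRKY53 is a positive regulator of leaf senescence and takes part in basal defence. Its intensity was 124.3 and 112 on the ref6-1 arrays, against 113.5 and 105.6 on the Col arrays. The first ref6-1 array was the highest of the 4, whereas the second lay just below the higher Col array, so the genotypes overlapped. The means were 118 ± 8.69 in ref6-1 and 109.6 ± 5.63 in Col (SD, n = 2 each). The fold change, taken on the scale of log2(intensity + 16) and written as ref6-1 minus Col, was 0.09 in log2 (SE 0.105, 95% interval -0.14 to 0.33, limma adjusted p = 0.920). The interval corresponds to 0.908 to 1.26 times the Col level on that scale. Adding 16 understates the change of dim genes.

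WRKY22 is known as a factor downstream of the MAP kinase cascade that flagellin perception activates. It had intensities of 579.8 and 518 in ref6-1, against 587 and 549.6 in Col. The lowest array was a ref6-1 array and the highest a Col array, with the other two between them, and the gap between the ref6-1 replicates, 62.0, exceeded the difference of the means. The log2 fold change was -0.05 (SE 0.102, 95% interval -0.28 to 0.18, limma adjusted p = 0.964).

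The 3 genes of group IIb all had both ref6-1 arrays above both Col arrays. In all, 3 of the 6 WRKY genes had genotypes that did not overlap, each with ref6-1 above, against 35.6% of all probe sets (16.1% with ref6-1 above and 19.5% with ref6-1 below). None of the 3 passed the limma threshold, and the grouping was made with the values known.

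WRKY47, which has been linked to cell wall modification under aluminium stress, had intensities of 173 and 178 in ref6-1, against 138 and 130.9 in Col. The gap between the genotypes, 34.9, was wider than the gap of 4.57 between the ref6-1 replicates and that of 7.34 between the Col replicates. The means were 175 ± 3.23 in ref6-1 and 135 ± 5.19 in Col (SD, n = 2 each). The log2 fold change was 0.35 (SE 0.0984, 95% interval 0.13 to 0.57), with an unadjusted p of 0.00570 and a limma adjusted p of 0.189. In the ranking of all probe sets by unadjusted p it stood at place 687 of 22746. The interval of this single gene lies above 0 but is not adjusted for the number of probe sets tested, so the difference is reported as one that did not pass.

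WRKY42, which represses the phosphate exporter gene PHO1 and promotes phosphate uptake, was the dimmest of the 6 relative to the added constant: 16 is 29.6% of its Col mean. It had 62.2 and 68.2 in ref6-1, against 48.9 and 59.3 in Col. The genotypes were apart by 2.87, less than the 10.4 between the Col replicates. The log2 fold change was 0.21 (SE 0.114, 95% interval -0.04 to 0.47, limma adjusted p = 0.722).

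WRKY6, which like WRKY42 represses PHO1 and is also known from senescence and defence, had 179.6 and 189.8 in ref6-1, against 164.9 and 167 in Col. All 4 arrays lay close together, and the genotypes were apart by 12.1, against replicate gaps of 10.2 in ref6-1 and 2.58 in Col. The log2 fold change was 0.14 (SE 0.0979, 95% interval -0.08 to 0.36, limma adjusted p = 0.845).

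WRKY20, of group I, had 303 and 331 in ref6-1, against 287 and 353 in Col. Both ref6-1 arrays lay between the Col arrays, which were 66.4 apart. The log2 fold change was -0.01 (SE 0.118, 95% interval -0.27 to 0.26, limma adjusted p = 0.995). ZAP1, the other gene of group I with a named probe set, had 268 and 266 in ref6-1, against 249 and 259 in Col. Its ref6-1 arrays both lay above its Col arrays, by 6.95, which is less than the 9.79 between the Col replicates. Its log2 fold change was 0.07 (SE 0.0958, limma adjusted p = 0.942).

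**Figure D1:**
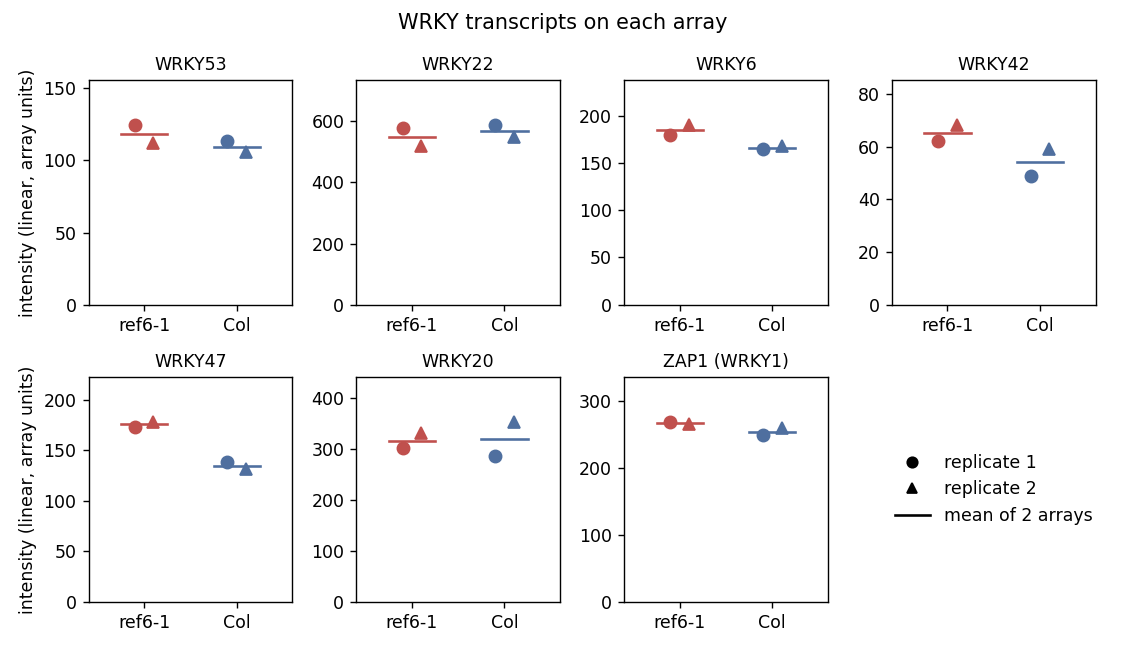
Intensity on a linear scale starting at 0 (array units, vertical axis) of the 6 WRKY genes and ZAP1 on the 2 ref6-1 and the 2 Col arrays, with 1 panel and 1 scale per gene; circles are replicate 1, triangles replicate 2 and bars the mean of 2 arrays. WRKY47 is the panel with the clearest separation, 173 and 178 in ref6-1 against 138 and 130.9 in Col, and none of the genes passed the test.

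Ordered by log2 fold change, the 6 genes ran from WRKY47 (0.35) through WRKY42 (0.21), WRKY6 (0.14), WRKY53 (0.09) and WRKY20 (-0.01) to WRKY22 (-0.05). The 95% intervals of any 2 neighbours in this order overlap. The median of the 6 was 0.12, beside a median of -0.02 over all probe sets tested. Of the 6 values 4 were above 0, as were those of 9918 of the 22746 probe sets. The standard errors were between 0.0979 and 0.118, close to the median of 0.107 over all probe sets. The smallest changes that passed anywhere on the array were 0.46 upward and -0.47 downward. A probe set with a larger standard error needs a larger change to pass, so these are not the limits of each WRKY gene. The intervals of WRKY47 and WRKY42 reach past 0.46, up to 0.57 and 0.47. Those of WRKY53, WRKY6, WRKY20 and WRKY22 stay between -0.47 and 0.46, from -0.28 to 0.36 in all.

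**Figure D2:**
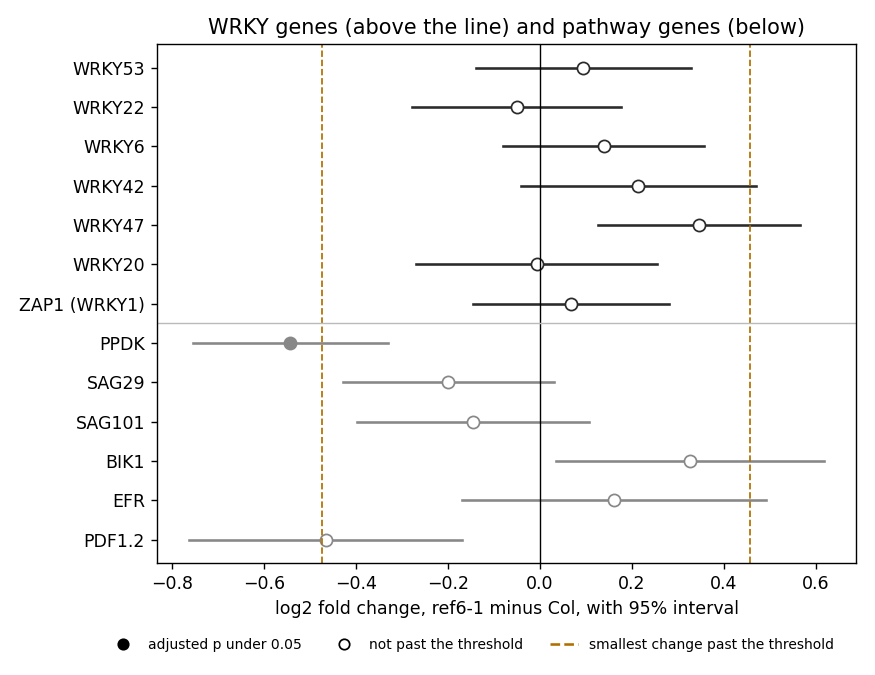
Log2 fold change (horizontal axis, ref6-1 minus Col, on the scale of log2(intensity + 16)) with its 95% interval for the 6 WRKY genes and ZAP1, in black, and for 6 pathway genes, in grey; filled points passed the limma adjusted p of 0.05 and dashed lines mark the smallest changes that passed among all probe sets, -0.47 and 0.46. All 7 WRKY points are open and lie between -0.05 and 0.35, and PPDK, at -0.54, is the filled one.

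The 6 genes did not share one profile over the 4 arrays. The first ref6-1 array was the highest of the 4 for WRKY53, the second ref6-1 array for WRKY47, WRKY42 and WRKY6, the first Col array for WRKY22 and the second Col array for WRKY20. With each gene centred on its own mean, the smallest root mean square difference between 2 profiles among the 15 pairs was that of WRKY22 and WRKY53, at 0.07 in log2. The pair WRKY42 and WRKY6 had 0.08, and the widest was 0.22 for WRKY20 and WRKY47. Genes with small ranges differ little by this measure, and WRKY22 and WRKY53 had log2 fold changes of opposite sign (-0.05 and 0.09). The whole range over the 4 arrays was 0.40 for WRKY47, 0.37 for WRKY42, 0.29 for WRKY20, 0.21 for WRKY53, 0.19 for WRKY6 and 0.18 for WRKY22, in log2. In 5 of the 6 genes replicate 2 differed from replicate 1 in the same direction in both genotypes, as it did for 58.2% of all probe sets. WRKY20 and WRKY42 were higher in replicate 2 by 0.12 and 0.11 in ref6-1 and by 0.29 and 0.21 in Col, whereas WRKY22 differed by -0.16 in ref6-1 and -0.09 in Col. WRKY47 was the exception, with 0.03 in ref6-1 and -0.07 in Col. Whether the replicate numbers mark a shared batch is not given in the labels.

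**Figure D3:**
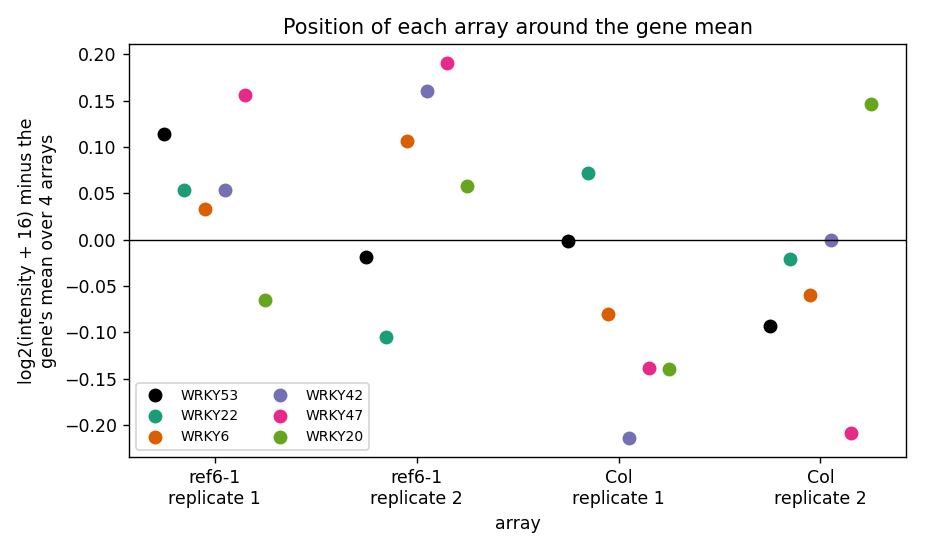
Log2(intensity + 16) of each of the 6 WRKY genes minus that gene's mean over the 4 arrays (vertical axis), by array (horizontal axis, ref6-1 left and Col right), with 1 colour per gene. WRKY47 is high on both ref6-1 arrays and low on both Col arrays, whereas WRKY20 runs from its lowest to its highest value within Col.

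Among 7265 other genes with a mean intensity of at least 100, the 3 whose centred profile was nearest to that of WRKY53 carry only locus codes, AT1G53760, AT2G43630 and AT5G02230. Their root mean square difference from WRKY53 over the 4 arrays was between 0.0090 and 0.0100 in log2, and their log2 fold changes were 0.09, 0.09 and 0.10. None of these 3 passed the limma threshold (adjusted p between 0.912 and 0.922). With 4 arrays and a small range, such a match is a description of near-flat profiles.

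The genes that neighbour the WRKY loci in the RefSeq annotation were compared as well. The nearest gene with its own named probe set was taken on each side of each of the 6 loci, 12 genes in all. For 8 of them no other protein-coding locus lay between. None passed the limma threshold, against 1.48% of all probe sets. At an unadjusted p under 0.05 the count was 0 (the smallest was 0.177), against 8.5% of all probe sets. Their log2 fold changes lay between -0.15 and 0.14. WRKY47 lies between CRK, at -0.06, and AT4G01730, at -0.02. WRKY53 lies between 3xHMG-box2, at -0.03, and AT4G23820, at -0.13. The genotypes did not overlap in 4 of the 12 neighbours, against 35.6% of all probe sets. In AT1G62290 and AT1G62310, on either side of WRKY6, both ref6-1 arrays lay above both Col arrays, with log2 fold changes of 0.05 and 0.14. In AT4G23820, beside WRKY53, and AT4G26620, near WRKY20, both lay below, with -0.13 and -0.15. Between AT4G26620 and WRKY20, as between AT1G62310 and WRKY6, lies 1 other protein-coding locus.

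Of the 72 genes on 6 lists of pathways around WRKY factors, 6 had a named probe set, of which 1 was lower in ref6-1, none was higher and 5 did not pass, against 1.48% of all probe sets past the threshold. At an unadjusted p under 0.05 the count was 3 of 6, PPDK, PDF1.2 and BIK1, against 8.5% of all probe sets. The lists were chosen with earlier results of these data known, so these counts do not test the pathways. The lists for camalexin synthesis and for regulators and partners of WRKY53 had no member with a named probe set. On the senescence list, 2 of 14 genes had a named probe set. PPDK, the pyruvate orthophosphate dikinase, which takes part in nitrogen remobilisation from old leaves, had 548 and 543 in ref6-1, against 779.9 and 823 in Col, and both ref6-1 arrays lay well below both Col arrays. It fell by 0.54 on the log2 scale (SE 0.0946, limma adjusted p = 0.0202), and without Col replicate 2 the value was -0.50 with a limma adjusted p of 0.0690. SAG29, a sugar transporter gene induced in senescing leaves, had 169 and 178.5 in ref6-1, against 213 and 191 in Col, a log2 fold change of -0.20 that did not pass (limma adjusted p = 0.694).

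Among the immune genes, 3 had a named probe set on the lists for salicylic acid and for pattern receptors and MAP kinases. BIK1, the cytoplasmic kinase that relays signals from pattern receptors, had 342 and 419 in ref6-1, against 269 and 331 in Col. Its ref6-1 arrays lay above the Col arrays by 10.7, less than the replicate gaps of 77.4 in ref6-1 and 62.1 in Col, and its log2 fold change was 0.33 (SE 0.131, limma adjusted p = 0.482). That value was 0.19 without Col replicate 1 or without ref6-1 replicate 2, and 0.47 without either of the other arrays. EFR, the receptor for bacterial elongation factor Tu, had a log2 fold change of 0.16 and SAG101, a partner of EDS1 in immune signalling, of -0.15, both with overlapping arrays (limma adjusted p = 0.895 and 0.859). PDF1.2, a defensin induced by jasmonate and ethylene, was the gene with a named probe set among 11 on the jasmonate list. It had 30.8 and 25.3 in ref6-1, against 52.0 and 38.2 in Col, which gives -0.47 in log2 fold change (SE 0.133, limma adjusted p = 0.191). The value depended on the arrays used. It was -0.63 without Col replicate 2, -0.30 without Col replicate 1, -0.56 without ref6-1 replicate 1 and -0.38 without ref6-1 replicate 2. The added 16 is 35.5% of its Col mean, and the fold change was -0.66 with a constant of 1 and -0.24 with 64.

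For comparison, 14 genes with a named probe set have bZIP and a number as symbol, and bZIP factors named otherwise were not counted. These 14 had a median log2 fold change of 0.00. None was called in either direction in limma, against 1.48% of all probe sets, and none had an unadjusted p under 0.05, against 8.5%. A difference between that family and the WRKY genes was not tested.

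Median intensity was 144.6 and 143.4 on the ref6-1 arrays, against 146.3 and 142.6 on those of Col. Of the tissue markers, 2 of 5 leaf genes (RCA and LHCB4.1), 3 of 3 root genes (EXPA7, EXPA18 and PYK10) and 1 of 3 shoot meristem genes (CLV3) had a named probe set. RCA had 13878 and 13486 in ref6-1, against 12708 and 13608 in Col. None of these 6 markers passed the limma test, against 1.48% of all probe sets. At an unadjusted p under 0.05, 1 of the 6 was counted, PYK10, against 8.5% of all probe sets. PYK10, a beta-glucosidase abundant in roots, had 6559 and 6765 in ref6-1, against 5200.2 and 5895 in Col (log2 fold change 0.27, limma adjusted p = 0.453), and 2 of the 3 root genes, PYK10 and EXPA7, had both ref6-1 arrays above both Col arrays, EXPA7 by 0.60. So did CLV3, a dim gene, with 36.0 and 40.5 in ref6-1, against 33.4 and 33.8 in Col. The added 16 is 47.6% of its Col mean. With CLV3, 3 of the 6 markers had ref6-1 above, against 16.1% of all probe sets. The part of this in the WRKY values was not tested. The flower organ genes AP1, AP3 and AG and the transcript of REF6 were not analysed here, so REF6 gave no check of the genotype labels.

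Leaving out 1 array at a time kept WRKY47 between 0.31 and 0.38, with limma adjusted p between 0.257 and 0.743. WRKY53 stayed above 0, between 0.03 without ref6-1 replicate 1 and 0.16 without ref6-1 replicate 2. WRKY6 lay between 0.10 and 0.18 and WRKY42 between 0.11, without Col replicate 1, and 0.32, without Col replicate 2. WRKY22 and WRKY20 changed sign with the choice of array.

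**Figure D4:**
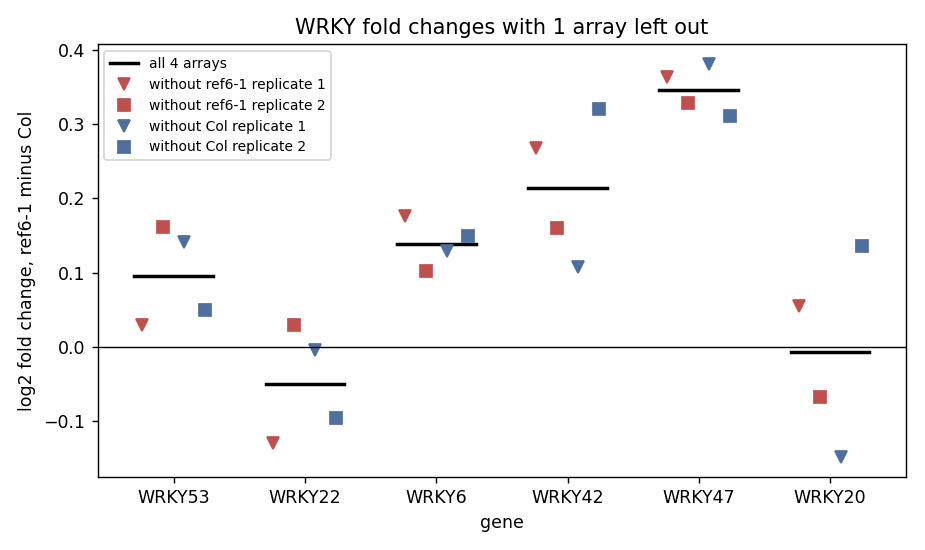
Log2 fold change (vertical axis, ref6-1 minus Col) of the 6 WRKY genes with all 4 arrays (black bars) and with each array left out (red, a ref6-1 array left out; blue, a Col array left out; triangles, replicate 1; squares, replicate 2). WRKY47 stays between 0.31 and 0.38, whereas WRKY20 spreads from -0.15 to 0.14.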

How the data were processed

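The deposited values are intensities, 1 per probe set and array on a linear scale, made by the authors. Per the series' design text, a service facility ran the arrays, and per the labels' protocols, biotin-labelled cRNA came from 10 ug of Trizol-extracted total RNA. How they were summarized, background-corrected and normalized is not stated in any label or header. The lowest value was 1, held by 10 to 17 probe sets per array.

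Of 22810 probe sets, the 64 array controls were left out. The other 22746 were tested as log2(intensity + 16) in limma 3.58.1 (R 4.3.3; lmFit, then eBayes with a trend on intensity). The test was two-sided, p-values were adjusted by Benjamini-Hochberg over all these probe sets, and the threshold was 0.05. The fit was tested on simulated arrays. Their spread was drawn from the fit itself, without a shared replicate effect, and the planted changes were larger than those of the WRKY genes. An exact permutation test of 2 against 2 arrays cannot go below p = 0.333 and was not used. The number of arrays limits the precision.

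Names came from the platform annotation, which gives a single gene for 13513 of the 22746 probe sets tested, and from RefSeq. A gene not named in this way may still have a probe set on the array, and such genes were not analysed. The brightest probe set stood for a gene. No label names a genome build, and coordinates are left out. No sequence of the WRKY genes was available, so none is given.

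Named were all WRKY genes, the listed pathway genes past the threshold and, where fewer than 2 passed on a list, up to 2 with the smallest unadjusted p, and the 3 genes nearest to WRKY53 in profile. The neighbouring genes and the bZIP comparison were chosen after the files had been opened. The members and lists were chosen with earlier results of these data known. Alternatives were scaling, constants of 1 and 64, a filter on the dimmest 30% of probe sets, other variance priors, a fold threshold, a replicate block and leaving out each array.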

Additional observations from a re-analysis of the deposited data

How the results depend on the processing

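None of the 6 WRKY genes passed the limma threshold under quantile normalization, median centring, added constants of 1 or 64, the filter on dim probe sets, the other variance priors or with any array left out. The exception was the fit with replicate number as a block, in which WRKY47 passed at 0.35 (adjusted p = 0.0134), so that 1 WRKY gene was called. The labels give the numbers no shared batch. Over all probe sets, the replicate differences of the 2 genotypes had a correlation of 0.279. With 2 arrays per genotype this does not settle whether the arrays are paired, which was not tested. The block raised the count over all probe sets to 1636 and that of the pathway genes to 3, with BIK1 and PDF1.2 called beside PPDK.

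Under the alternatives other than leaving out an array, each WRKY gene kept its sign. WRKY47 ranged from 0.27 to 0.38 and WRKY42 from 0.13 to 0.27, lowest with a constant of 64 and highest with 1, since the constant sets the scale. WRKY42 is among the dimmest 30% and has no value with that filter, and since each WRKY gene had 1 probe set, no other probe set could be tried.

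Leaving out 1 array gave 273 to 533 probe sets past the threshold, 533 without Col replicate 2, where a lone array was assumed to vary like the other genotype. The WRKY20 value then ran from -0.15 to 0.14 (0.14 without Col replicate 2, 0.05 without ref6-1 replicate 1), WRKY22 from -0.13 to 0.03 (0.029 without ref6-1 replicate 2) and EFR from -0.021 (without Col replicate 2) to 0.34. The pathway count stayed at 1, but without Col replicate 2 the gene was PDF1.2 and not PPDK. A log2 fold change of at least 0.6 as well left 236 probe sets and 0 pathway genes. The unstated background correction limits what a dim gene such as WRKY42 can show.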
